A study of Homo sapiens with 4 samples.

Results

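Genes for the synthesis of cholesterol and fatty acids were compared between imatinib-sensitive TF1-BA cells and imatinib-resistant TF1-BAR cells. The members are 36 genes named for their function, a list drawn up with earlier results of these data known, and all 36 were found by symbol among the 32673 genes of the expression table. They comprise 7 enzymes of the mevalonate pathway, 11 enzymes of the squalene and sterol branch, 5 regulators of the transcription factors SREBP-1 and SREBP-2 (these factors included), 4 proteins of sterol traffic and uptake, 4 enzymes that make palmitate or its precursors, and 5 desaturases and elongases that modify it. A mean of at least 0.5 FPKM (fragments scaled to transcript length and sequencing depth) was reached by 35 members, and these were tested among the 15519 genes that reached it. CYP51A1 was the member left out.

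Both lines come from TF1, a human erythroleukaemia cell line that grows in GM-CSF, and both carry the p210 form of the BCR-ABL fusion kinase, introduced with a retrovirus. TF1-BAR cells were derived from such cells by long continuous exposure to imatinib, an inhibitor of that kinase. By the labels, both lines were grown in RPMI-1640 with fetal bovine serum and 2 ng/ml GM-CSF, and 2 uM imatinib was added to the TF1-BAR cultures. RNA of 2 libraries a line was sequenced, and the titles of the TF1-BAR libraries carry the word VECTOR. Whether the drug was still present at harvest is not stated, so that resistance, exposure to the drug and any vector cannot be told apart in this comparison. The labels do not say that the 2 libraries of a line came from separate cultures, so p-values measure only the spread between these libraries.

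Cells make cholesterol from acetyl-CoA through mevalonate, isoprenoid diphosphates, squalene and lanosterol. SREBP-2, encoded by SREBF2, mainly drives the genes of this route, while SREBP-1, encoded by SREBF1, mainly drives the genes of fatty acid synthesis. Both are held in the endoplasmic reticulum by SCAP and an INSIG protein when sterols are plentiful, and are carried to the Golgi and cut free when sterols fall. INSIG1 is itself a target of SREBP, which closes a feedback loop.

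The libraries held 15465497 to 18042299 fragments, and log2 values of the same line correlated at 0.983 in TF1-BA and 0.979 in TF1-BAR across genes, which are not independent replicates. All 9 marker genes of erythroid and myeloid progenitors, such as GATA1 and the GM-CSF receptor genes, were between 6.64 and 241 FPKM. Of 17 markers of other cell types, 6 reached 1 FPKM in a library, the highest being KRT18, while CD3E, CD14 and COL1A2 stayed at or near 0. Several markers differed between the lines, which is given here without a test. CD3D, a T cell gene, was at 19.2 and 20.7 FPKM in TF1-BA and 5.74 and 6.36 in TF1-BAR, while KRT18 was at 32.2 and 34.2 in TF1-BA and 55.8 and 54.6 in TF1-BAR, and CD79A at 1.84 and 2.19 in TF1-BA and 3.55 and 3.15 in TF1-BAR. Of the 9 progenitor markers, 6 were higher in TF1-BAR with no overlap of the libraries (CD34, CD33, TAL1, EPOR, CSF2RB and GATA2), with CD34 at 25.8 and 24.7 FPKM in TF1-BA and 53.9 and 61.2 in TF1-BAR. The other 3 were lower, again with no overlap (KLF1, GATA1 and CSF2RA), with KLF1 at 57.8 and 64.7 FPKM in TF1-BA and 45.4 and 51.1 in TF1-BAR. The part of these markers in the results below was not tested.

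Among the 35 members tested, 16 rose in TF1-BAR and 1 fell at an adjusted p under 0.05 (limma on log2(FPKM + 0.5), Benjamini-Hochberg over all genes tested). The members that rose were HMGCS1, FDFT1, SQLE, LSS, SC5D, DHCR7, INSIG1, SREBF2, SCAP, NPC2, ACACA, ACSS2, SCD, FADS1, FADS2 and ELOVL6, and the member that fell was NSDHL. Over all genes tested 16.3% were higher and 10.5% lower by the same rule, against 45.7% and 2.86% of the members. The members were expressed at higher levels, with a median of 11.4 FPKM against 4.52 for all genes tested. The part of this level in the shares was not tested. INSIG1 and SC5D also passed a 2-fold threshold, which 3.05% of all genes passed upward, and 0 members passed it downward, as 1.69% of all genes did. The median log2 fold change of the members was 0.32, against 0.07 over all genes, and most rises were of less than 2-fold. Both TF1-BAR libraries were above both TF1-BA libraries for 24 members and below them for 4, while 7 overlapped, where the shares over all genes were 40.9% above and 28.4% below. In bulk RNA of this kind, a difference in the kinds of cells present and a difference in RNA per cell cannot be told apart.

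These counts depended on the libraries kept. Without TF1-BA replicate 1 or without TF1-BA replicate 2, 0 members passed in either direction, and over all genes only 85 rose and 59 fell without the first and 25 rose and 17 fell without the second. Without TF1-BAR replicate 1, 12 members rose, of which 11 were among the 16 and MYLIP was added, and without TF1-BAR replicate 2, 9 rose, with 0 falling in both cases, while 1827 and 547 of the 15519 genes rose in these fits, against 2537 with all libraries. In each of these fits a line with 1 library is assumed to vary like the other. The log2 fold changes of the 16 members that rose stayed positive in all 4 of these fits, between 0.29 for DHCR7 without TF1-BAR replicate 1 and 1.35 for INSIG1 without TF1-BAR replicate 2.

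**Figure D1:**
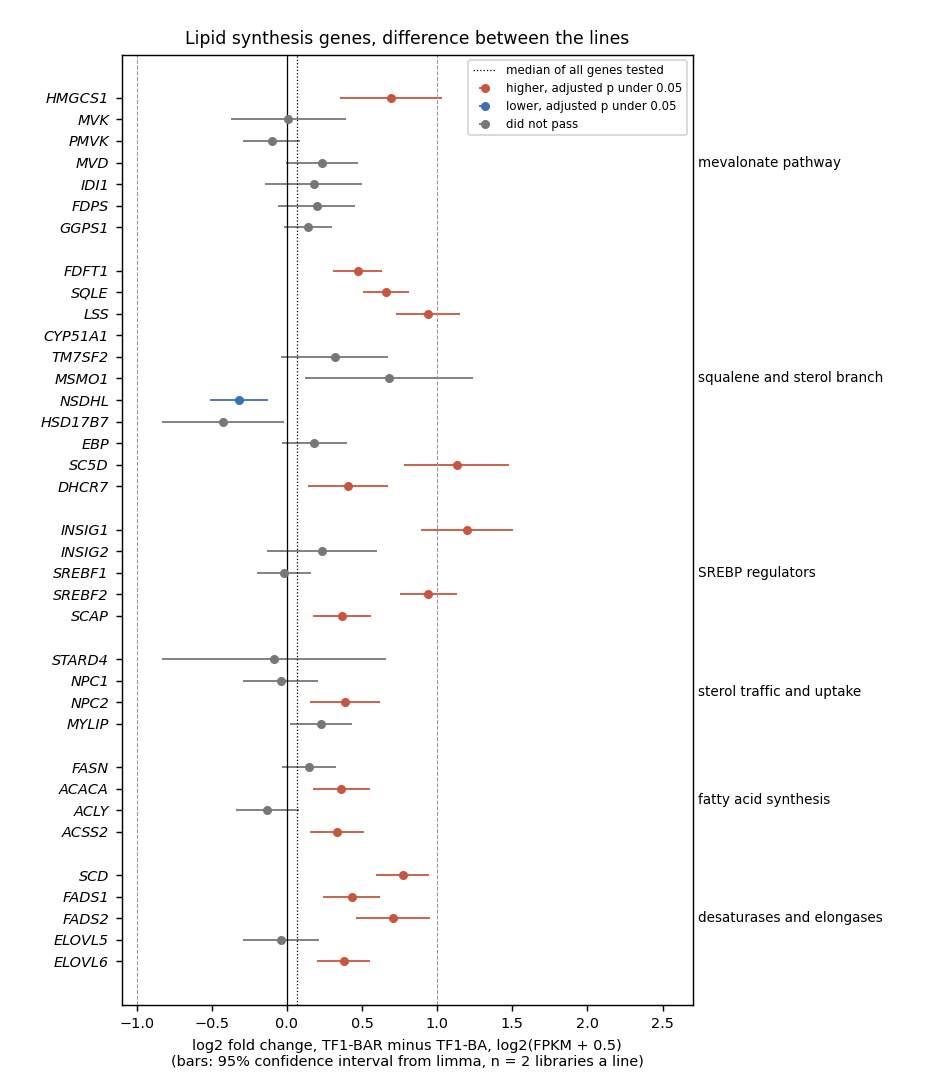
Log2 fold change of each member, TF1-BAR minus TF1-BA on the log2(FPKM + 0.5) scale (points, x axis), with the 95% confidence interval from limma (bars, 2 libraries a line), grouped by role on the y axis. Orange points rose and the blue point, NSDHL, fell at an adjusted p under 0.05, grey points did not pass, CYP51A1 was not tested, and the dotted line is the median of all genes tested, 0.07.

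Of the 5 regulators 3 rose (60%, against 16.3% of all genes), SREBF2, INSIG1 and SCAP, while the paralogs SREBF1 and INSIG2 did not pass. SREBF2, on the plus strand of chromosome 22, was at 19.6 and 20.5 FPKM in TF1-BA and at 37.3 and 40.6 FPKM in TF1-BAR. The TF1-BAR libraries were well above the TF1-BA libraries, and SREBF2 rose by a log2 fold change of 0.94 (SE 0.0739, adjusted p = 0.00462). SREBF1, on chromosome 17, was at 24.2 and 23.4 FPKM in TF1-BA and at 22.7 and 24.3 FPKM in TF1-BAR. These values overlapped, and the difference was −0.02 with a 95% confidence interval of −0.20 to 0.16, a sign that turns positive (0.05) when the values are rescaled to TPM. In FPKM, which is per length, SREBF1 was the higher of the pair in both TF1-BA libraries and SREBF2 in both TF1-BAR libraries, the ratio of SREBF2 to SREBF1 being 0.807 and 0.877 in TF1-BA and 1.65 and 1.67 in TF1-BAR. The log2 ratio differed by 0.98, with p = 0.333 in a two-sided exact permutation test, the smallest p that 2 against 2 libraries allow.

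INSIG1, which retains the SCAP complex and is itself induced by SREBP, was at 8.11 and 8.02 FPKM in TF1-BA and at 21.4 and 17.1 FPKM in TF1-BAR. It rose by a log2 fold change of 1.20 (SE 0.119, adjusted p = 0.0067, limma), the largest of the members on the log2(FPKM + 0.5) scale, though not with limma voom, where SC5D was at 1.26 and INSIG1 at 1.25. INSIG2, which shares that retaining role, was at 4.80 and 5.45 FPKM in TF1-BA and at 6.92 and 5.37 FPKM in TF1-BAR. The libraries of INSIG2 overlapped and its difference of 0.23 did not pass (95% confidence interval −0.13 to 0.60, adjusted p = 0.271, limma). The ratio of INSIG1 to INSIG2 was 1.69 and 1.47 in TF1-BA and 3.09 and 3.19 in TF1-BAR, again at the smallest p the design allows in the exact permutation test (0.333). SCAP, the escort of the SREBP precursors, was at 11 and 11.2 FPKM in TF1-BA and at 13.9 and 15.0 FPKM in TF1-BAR, and rose by 0.37 on the log2 scale (SE 0.0747, adjusted p = 0.0271). The rise of SCAP lost its call without TF1-BAR replicate 2, without either TF1-BA library, with no filter and without the trend in the spread.

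The starts of these genes are shown because SREBP binds a short sterol regulatory element, usually near sites of NF-Y and Sp1, and because several members rose together. The windows are the 250 bases before the first RefSeq transcript start listed for each gene (GRCh38.p14), written 5′ to 3′ along the gene, for the 5 members with the largest log2 fold changes and for SREBF1. Capitals mark TCACNCCAC, a loose form of the sterol element core, CCAAT, the NF-Y motif, and the E-box CACGTG, on either strand, so that GTGGNGTGA and ATTGG are marked as well.
SREBF2, chr22:41832855-41833104, plus strand: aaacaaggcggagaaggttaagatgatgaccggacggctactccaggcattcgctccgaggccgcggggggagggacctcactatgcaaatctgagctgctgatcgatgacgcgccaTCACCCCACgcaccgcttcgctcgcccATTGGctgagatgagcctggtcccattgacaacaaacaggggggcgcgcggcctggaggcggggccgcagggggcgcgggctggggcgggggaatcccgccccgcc
INSIG1, chr7:155297628-155297877, plus strand: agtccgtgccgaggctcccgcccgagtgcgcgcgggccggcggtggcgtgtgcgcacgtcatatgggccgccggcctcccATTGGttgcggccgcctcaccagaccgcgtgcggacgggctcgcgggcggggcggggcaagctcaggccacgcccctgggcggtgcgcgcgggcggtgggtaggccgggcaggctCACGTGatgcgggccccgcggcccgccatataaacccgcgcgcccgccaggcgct
SC5D, chr11:121292521-121292770, plus strand: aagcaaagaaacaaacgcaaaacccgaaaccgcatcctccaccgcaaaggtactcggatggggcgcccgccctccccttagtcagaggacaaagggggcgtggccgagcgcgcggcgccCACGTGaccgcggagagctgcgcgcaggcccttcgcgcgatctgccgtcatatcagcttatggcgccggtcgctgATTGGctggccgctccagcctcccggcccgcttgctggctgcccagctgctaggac
LSS, chr21:46228775-46229024, minus strand: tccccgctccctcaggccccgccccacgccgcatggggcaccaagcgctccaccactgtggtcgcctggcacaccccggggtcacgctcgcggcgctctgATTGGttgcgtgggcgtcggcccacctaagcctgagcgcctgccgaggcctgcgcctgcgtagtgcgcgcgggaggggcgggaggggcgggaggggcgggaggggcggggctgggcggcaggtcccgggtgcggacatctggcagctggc
SCD, chr10:100346983-100347232, plus strand: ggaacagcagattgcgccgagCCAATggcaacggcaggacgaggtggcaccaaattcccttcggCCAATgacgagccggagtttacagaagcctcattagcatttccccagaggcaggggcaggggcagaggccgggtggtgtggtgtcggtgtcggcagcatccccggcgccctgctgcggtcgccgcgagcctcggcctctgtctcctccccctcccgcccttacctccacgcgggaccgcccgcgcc
SREBF1, chr17:17836987-17837236, minus strand: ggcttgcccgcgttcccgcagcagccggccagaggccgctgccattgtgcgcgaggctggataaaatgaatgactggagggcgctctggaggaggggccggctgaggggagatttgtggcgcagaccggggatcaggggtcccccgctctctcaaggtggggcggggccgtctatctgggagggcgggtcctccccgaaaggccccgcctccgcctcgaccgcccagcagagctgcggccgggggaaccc
Searched with 50 bases after the start as well, SREBF2 alone among the 33 members with a window held TCACCCCAC, the strict core, with its first base at −133 from the start. That motif, which the looser TCACNCCAC includes, is in 0.425% of all 27305 windows and 0.366% of the 9567 windows of genes tested, and the looser form, which was also found in no other member window, in 1.15% and 1.01%. The CCAAT motif was in 21 of the 33 member windows (63.6%), among them those of SREBF2, INSIG1, SC5D, LSS and SCD but not of SREBF1, against 35.7% of all windows and 37.0% of those of genes tested. CACGTG was in the windows of ELOVL5, INSIG1, LSS, SC5D and SCAP (15.2%, against 7.43% of all windows and 10.2% of those of genes tested), and that of LSS lies after the start. The Sp1 box CCGCCC was in 29 of 33 (87.9%), against 44.6% of all windows and 70.0% of the windows of genes tested. Among the 14 members that rose and had a window, 9 held CCAAT (64.3%), 4 held CACGTG (28.6%) and 13 held CCGCCC (92.9%). These letters were found by search only, no binding was measured here, and the absence of a motif from a window says nothing about other sites.

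Of the 7 mevalonate pathway members, 1 rose (14.3%, against 16.3% of all genes). HMGCS1, the cytosolic synthase that makes HMG-CoA, was at 7.91 and 8.73 FPKM in TF1-BA and at 15.5 and 12.2 FPKM in TF1-BAR. It rose by 0.69 on the log2 scale (SE 0.132, adjusted p = 0.0234, limma). A non-coding gene on the opposite strand covers part of its exons (37.7% of its exon bases are shared with other genes in the GENCODE 44 annotation), and reads of overlapping genes cannot be told apart since the library kit is not stated to mark strand. The call was lost without either TF1-BA library and when genes under the filter were included in the test.

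None of the next 4 enzymes of the pathway passed the test. MVK, mevalonate kinase, was the lowest of those tested, at 0.975 and 0.998 FPKM in TF1-BA and 0.940 and 1.06 FPKM in TF1-BAR, with 48 to 57 fragments a library and a difference of 0.01 whose sign turned in 2 other scalings. PMVK and MVD, which phosphorylate and decarboxylate the product, had differences of −0.10 and 0.23, and neither passed. IDI1, the isopentenyl diphosphate isomerase, was at 19.3 and 20.3 FPKM in TF1-BA and at 25.3 and 19.9 FPKM in TF1-BAR, so that 1 TF1-BAR library was above both TF1-BA libraries and the other between them. Its difference of 0.18 did not pass (adjusted p = 0.336), and IDI1 lies on chromosome 10, whose 593 genes tested had a median log2 fold change of −0.35.

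FDPS and GGPS1, the farnesyl and geranylgeranyl diphosphate synthases, had differences of 0.20 and 0.14 that did not pass (adjusted p = 0.197 and 0.153). FDPS has 8 pseudogenes by name and GGPS1 shares 41.0% of its exon bases with other genes, so their counting is uncertain. The median log2 fold change of the 7 members of the mevalonate pathway was 0.18.

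In the squalene and sterol branch 5 of 10 tested rose (50%, against 16.3% of all genes). There was 1 fall (10%, against 10.5% of all genes), and the median log2 fold change was 0.44. The difference between this branch and the mevalonate pathway was not tested. FDFT1, squalene synthase, was at 27.6 and 28.1 FPKM in TF1-BA and at 39.8 and 37.8 FPKM in TF1-BAR, and rose by 0.47 (SE 0.0633, adjusted p = 0.0111). SQLE, squalene epoxidase, a rate-controlling step of the branch, was at 27.1 and 26.4 FPKM in TF1-BA and at 43.0 and 42.1 FPKM in TF1-BAR, and rose by 0.66 (SE 0.06, adjusted p = 0.00581). LSS, which closes the epoxide into lanosterol, was at 3.87 and 4.0 FPKM in TF1-BA and at 7.71 and 8.30 FPKM in TF1-BAR, and rose by 0.94 (SE 0.0833, adjusted p = 0.00565). These 3 enzymes act in sequence from farnesyl diphosphate to the first sterol, and for each of them the 2 libraries of a line lay close together. The calls of all 3 held in every fit that kept all libraries and were lost without either TF1-BA library.

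CYP51A1, the lanosterol demethylase that acts next, was listed at 0.258 and 0.159 FPKM in TF1-BA and at 0.265 and 0.321 FPKM in TF1-BAR. These values rest on 10 to 21 fragments a library, and 74.1% of its exon bases are shared with other genes in GENCODE 44, so that the level of this member is uncertain. It was not part of the main test, and with no filter its log2 fold change was 0.16 with an adjusted p of 0.501.

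Among 5 enzymes that remove methyl groups or shift and reduce double bonds of the sterol ring, 1 fell and 4 did not pass. Over all genes tested 10.5% fell. MSMO1, the C-4 methyl oxidase, was at 4.18 and 5.03 FPKM in TF1-BA and at 9.50 and 6.13 FPKM in TF1-BAR. Its difference of 0.68 was close to that of SQLE but its SE was 0.217, and it did not pass (adjusted p = 0.0769), while limma voom on recovered fragments gave 0.74 with an adjusted p of 0.00642. NSDHL, the C-4 decarboxylating dehydrogenase, was at 12.7 and 12.6 FPKM in TF1-BA and at 9.69 and 10.4 FPKM in TF1-BAR, and fell by 0.32 on the log2 scale (SE 0.0747, adjusted p = 0.0365). That call was lost in each fit that left out a library, with no filter, without the trend in the spread and with rescaling to TPM. HSD17B7, the ketoreductase of the same complex, was at 2.00 and 2.62 FPKM in TF1-BA and at 1.72 and 1.45 FPKM in TF1-BAR. Its difference of −0.42 did not pass (adjusted p = 0.108), and 2 pseudogenes carry its name. TM7SF2, a C-14 sterol reductase, and EBP, the sterol isomerase, had differences of 0.32 and 0.18 that did not pass, and EBP shares 36.4% of its exon bases with another gene.

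The last enzymes of the branch rose. SC5D, the lathosterol oxidase, was at 2.71 and 2.87 FPKM in TF1-BA and at 7.59 and 5.89 FPKM in TF1-BAR. Its log2 fold change of 1.13 (SE 0.136, adjusted p = 0.00911) was the largest of the enzymes tested, from 247 to 272 fragments in TF1-BA and 527 to 666 in TF1-BAR. Without TF1-BAR replicate 1 it was 0.96, under the 2-fold threshold on this scale and below LSS at 0.99. DHCR7, the 7-dehydrocholesterol reductase, was at 9.99 and 9.39 FPKM in TF1-BA and at 14.1 and 12.0 FPKM in TF1-BAR, and rose by 0.41 (SE 0.103, adjusted p = 0.044). DHCR7 lost its call in every fit that left out a library, and also without the trend, with no filter and with upper-quartile or quantile scaling.

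**Figure D2:**
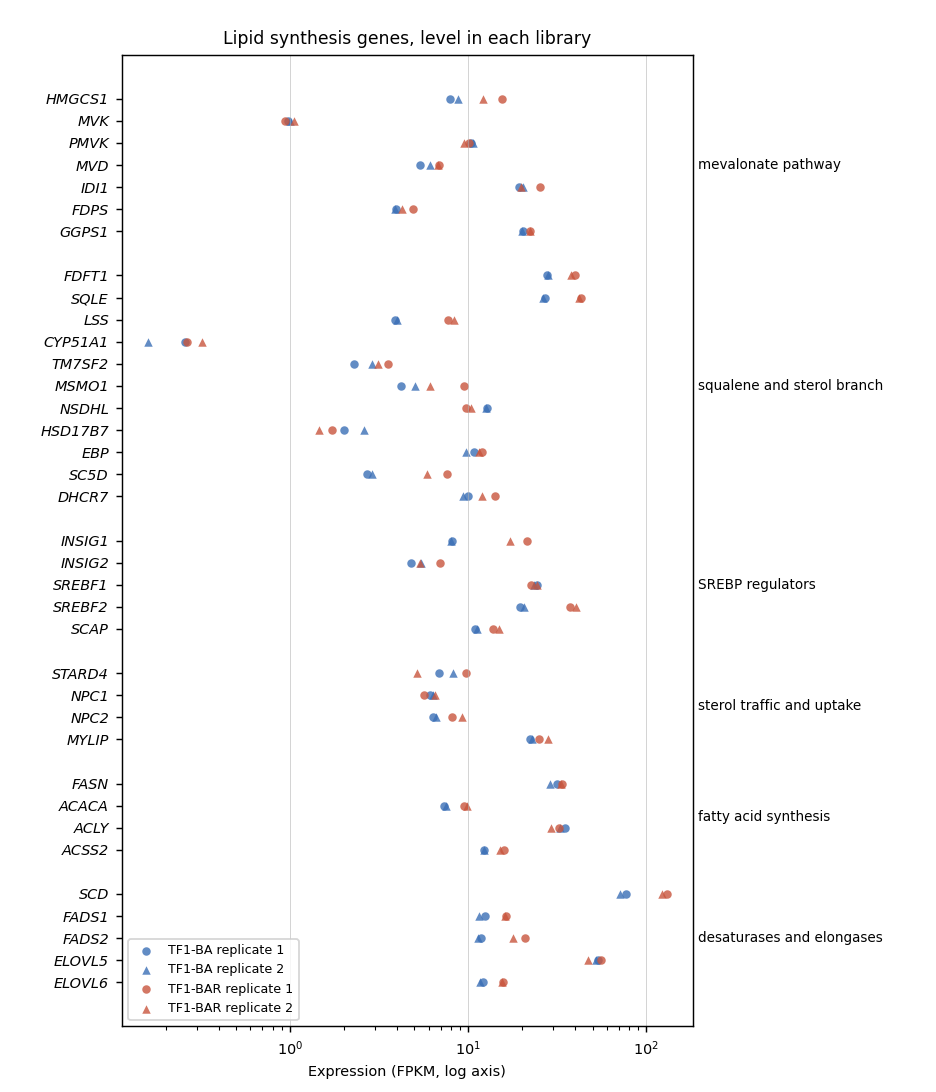
Expression level (FPKM, log10 axis) of the 36 members in each of the 2 TF1-BA and 2 TF1-BAR libraries (1 point a library), grouped by role. SCD was the highest member in both lines and CYP51A1 the lowest, and the TF1-BAR points lie apart from the TF1-BA points for SREBF2, INSIG1, LSS, SC5D and SCD.

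Of the 4 members of sterol traffic and uptake, 1 rose (25%, against 16.3% of all genes). NPC2, the soluble lysosomal protein that hands cholesterol to NPC1, was at 6.35 and 6.63 FPKM in TF1-BA and at 8.12 and 9.19 FPKM in TF1-BAR, and rose by 0.39 (SE 0.0914, adjusted p = 0.0374), a call lost without either TF1-BA library, without TF1-BAR replicate 2, with no filter, without the trend and with quantile normalization. NPC1, its membrane partner, had a difference of −0.04 (95% confidence interval −0.29 to 0.21), which turned to 0.02 with rescaling to TPM. MYLIP, a ubiquitin ligase for lipoprotein receptors, had a difference of 0.23 that did not pass (adjusted p = 0.0941), but passed without TF1-BAR replicate 1 (0.31, adjusted p = 0.0496).

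STARD4, a carrier that moves cholesterol between membranes, was at 6.90 and 8.21 FPKM in TF1-BA and at 9.68 and 5.14 FPKM in TF1-BAR. The 2 TF1-BAR libraries were the highest and the lowest of the 4, and the difference of −0.08 had a 95% confidence interval of −0.83 to 0.66. Without TF1-BAR replicate 2 the difference was 0.34, so the sign of STARD4 is set by single libraries.

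Of the 4 enzymes that make palmitate or its precursors, 2 rose (50%, against 16.3% of all genes), with a median log2 fold change of 0.24 against 0.07 over all genes. FASN, fatty acid synthase, was at 31.4 and 28.9 FPKM in TF1-BA and at 33.6 and 33.3 FPKM in TF1-BAR, a difference of 0.15 that did not pass (adjusted p = 0.173). ACLY, which makes cytosolic acetyl-CoA from citrate, was at 34.8 and 32.6 FPKM in TF1-BA and at 32.4 and 29.1 FPKM in TF1-BAR, a difference of −0.13 that did not pass (adjusted p = 0.283). Both are among the 7 most highly expressed members in both lines, and the 95% confidence intervals of their differences were −0.03 to 0.33 for FASN and −0.34 to 0.08 for ACLY.

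ACACA, the acetyl-CoA carboxylase of the cytosol, was at 7.28 and 7.55 FPKM in TF1-BA and at 9.50 and 9.84 FPKM in TF1-BAR, and rose by 0.36 (SE 0.0736, adjusted p = 0.0269). ACSS2, which makes acetyl-CoA from acetate, was at 12.3 and 12.2 FPKM in TF1-BA and at 16 and 15.1 FPKM in TF1-BAR, and rose by 0.33 (SE 0.0694, adjusted p = 0.0285). Both calls were lost in each fit that left out a library, with no filter and without the trend. ACSS2 lies on chromosome 20, where 46.8% of the 440 genes tested were higher in TF1-BAR and the median log2 fold change was 0.39. Relative to that median ACSS2 was at −0.06, and the part of the chromosome in its rise was not tested.

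Of the 5 desaturases and elongases, 4 rose (80%, against 16.3% of all genes), with a median log2 fold change of 0.43. When a library was left out, the log2 fold change of SCD was 0.71 to 0.83 and that of FADS2 0.60 to 0.81. SCD, the stearoyl-CoA desaturase that makes oleate, was the most highly expressed member in both lines, at 77.2 and 71.3 FPKM in TF1-BA and at 130.4 and 123 FPKM in TF1-BAR. It rose by 0.77 on the log2 scale (SE 0.0684, adjusted p = 0.00565). SCD lies on chromosome 10, where 44.5% of genes tested were lower and only 4.38% higher, and relative to that chromosome's median of −0.35 its difference was 1.12. The ratio of SCD to FASN was 2.46 and 2.47 in TF1-BA and 3.88 and 3.71 in TF1-BAR, so that the 2 libraries of a line lay close together and the lines apart.

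FADS1 and FADS2, the delta-5 and delta-6 desaturases of polyunsaturated fatty acids, are neighbours on chromosome 11 whose transcripts overlap on opposite strands for 5.57% and 5.11% of exon bases (other overlapping genes included). FADS2 was at 11.9 and 11.3 FPKM in TF1-BA and at 20.8 and 17.9 FPKM in TF1-BAR, and rose by 0.71 (SE 0.096, adjusted p = 0.0113). FADS1 was at 12.4 and 11.5 FPKM in TF1-BA and at 16.3 and 16.1 FPKM in TF1-BAR, and rose by 0.43 (SE 0.0742, adjusted p = 0.0188). ELOVL6, which lengthens palmitate to stearate, was at 12.1 and 11.7 FPKM in TF1-BA and at 15.8 and 15.5 FPKM in TF1-BAR, and rose by 0.38 (SE 0.0684, adjusted p = 0.0208). The calls of FADS1 and ELOVL6 were lost in each fit that left out a library, that of FADS1 also with no filter, and that of FADS2 without either TF1-BA library. ELOVL5, which lengthens polyunsaturated fatty acids, was at 53.3 and 52.0 FPKM in TF1-BA and at 56.0 and 46.9 FPKM in TF1-BAR, a difference of −0.04 (95% confidence interval −0.29 to 0.21) that turned to 0.03 with rescaling to TPM.

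The 2 TF1-BAR libraries were not alike for these genes. Replicate 1 was above replicate 2 for 24 of the 35 members tested (68.6%), against 44.6% of all genes tested, and the median log2 gap was 0.07 for members and −0.03 for all genes. A gap of at least 0.3, a size chosen after the values were seen, was present for 7 members in this direction (20%) and for 0 in the other, where 9.80% and 9.94% of all genes had such gaps. Among tested genes with a mean of at least 2 FPKM, the shares in TF1-BAR were 7.03% and 6.4%. The 7 were STARD4 (0.85), MSMO1 (0.59), SC5D (0.34), INSIG2 (0.34), IDI1 (0.34), HMGCS1 (0.33) and INSIG1 (0.31), each value being the log2 gap of replicate 1 over replicate 2. In TF1-BA replicate 1 was above replicate 2 for 16 of 35 members (45.7%), against 53.5% of all genes, and only HSD17B7 had a gap of that size, with replicate 2 the higher by 0.32, where 6.75% of all genes had such a gap with replicate 1 higher and 7.24% with replicate 2 higher. HMGCS1, SC5D and INSIG1 rose nonetheless in the fit of all 4 libraries, whereas MSMO1, STARD4, IDI1 and INSIG2 did not pass. What separates the 2 TF1-BAR libraries is not given by the labels and was not tested.

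**Figure D3:**
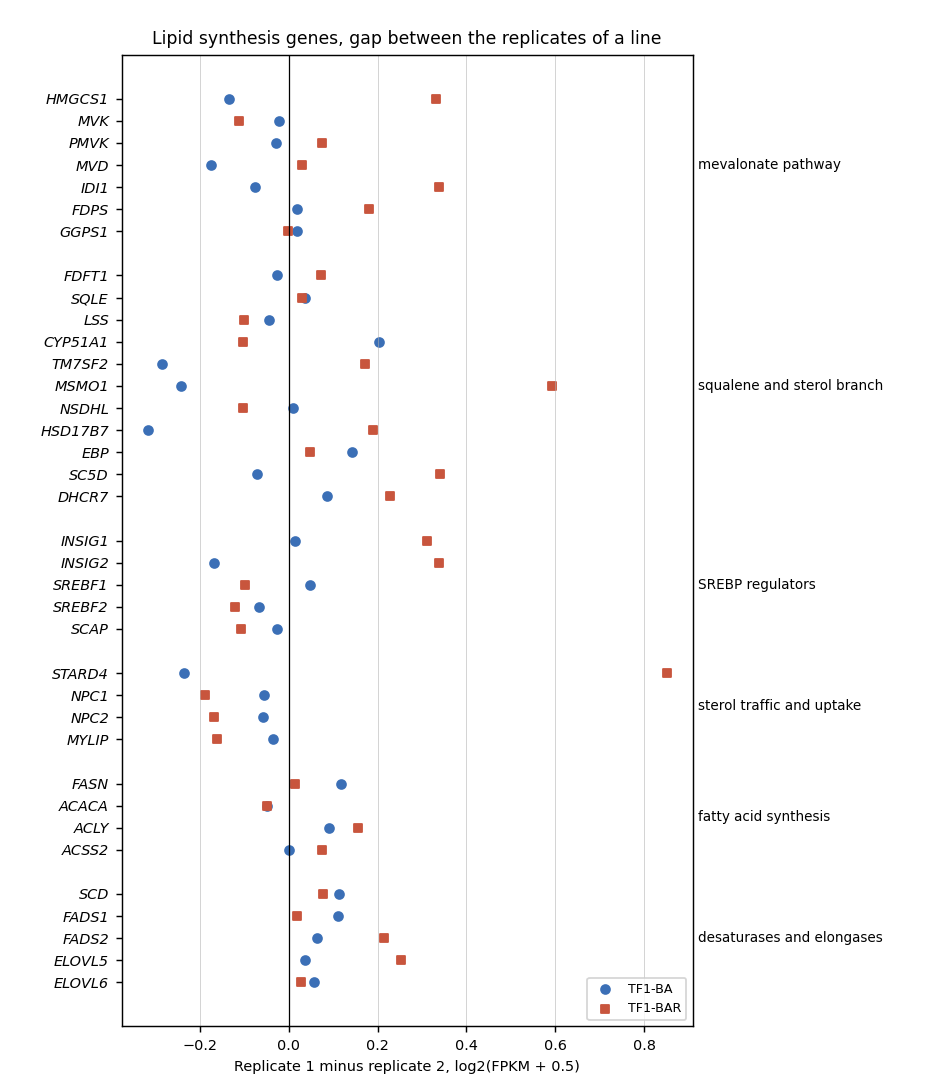
Log2 gap between replicate 1 and replicate 2 of the same line, on the log2(FPKM + 0.5) scale, for each member in TF1-BA and in TF1-BAR, with CYP51A1 drawn although it was not tested. In TF1-BAR 7 members lie at a gap of 0.3 or more, up to 0.85 for STARD4, and none of those tested lies as far on the other side.

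Related genes outside the 36 were taken from 5 lists, to be read against the 16.3% of all genes that were higher and the 10.5% that were lower. Calls in these lists come from the fit of all 4 libraries only, and their dependence on the processing or on single libraries was not examined. Of 9 genes of SREBP processing and sterol-regulated degradation, 4 rose (44.4%) and 2 fell (22.2%), with a median log2 fold change of 0.31. LPIN1, a phosphatidate phosphatase that also limits nuclear SREBP, was at 3.35 and 3.0 FPKM in TF1-BA and at 6.30 and 7.22 FPKM in TF1-BAR, and rose by 0.98 (adjusted p = 0.00773). UBE2G2, a ubiquitin-conjugating enzyme of the endoplasmic reticulum, rose by 0.61 and TMEM97, the sigma-2 receptor, by 0.59. ERLIN2 and ERLIN1, membrane proteins that bind cholesterol and take part in sterol-regulated degradation, fell by 0.89 and 0.45 on the log2 scale (adjusted p = 0.00782 and 0.0162), and ERLIN1 lies on chromosome 10. MBTPS1 and MBTPS2, the 2 proteases that release SREBP, had differences of 0.31 and −0.08 that did not pass.

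Of 7 genes of sterol efflux, esterification and the LXR receptors, ABCA1 and ABCG1 were under the filter and 1 of the 5 others rose (20%). The remaining 4 had differences below 0 that did not pass, and the median log2 fold change was −0.09. NR1H3, the oxysterol receptor LXR-alpha, was at 3.20 and 3.52 FPKM in TF1-BA and at 4.69 and 4.91 FPKM in TF1-BAR, and rose by 0.46 (adjusted p = 0.0263). Of 10 genes of the non-sterol isoprenoid branches 0 rose and 2 fell (20%), with a median of −0.15. They were NUS1, a subunit of the dolichol-making prenyltransferase (−0.52, adjusted p = 0.0235), and COQ2, a ubiquinone synthesis enzyme (−0.48, adjusted p = 0.0195).

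The other genes of fatty acid synthesis, elongation and activation had 3 of 24 tested rising (12.5%, below the share of all genes) and 6 falling (25%), with a median of 0.00 on the log2 scale. ELOVL2 rose by 0.58, ELOVL1 by 0.49 and ACAT2 by 0.37. ACAT2 is a cytosolic thiolase whose product, acetoacetyl-CoA, enters the mevalonate pathway, so its place in this list of fatty acid genes is loose. SCD5, a second stearoyl-CoA desaturase, was at 3.13 and 3.15 FPKM in TF1-BA and at 1.06 and 1.52 FPKM in TF1-BAR, and fell by 1.03 on the log2 scale (adjusted p = 0.0135), while SCD rose. ELOVL3, on chromosome 10, fell by 1.16 and ME1, the cytosolic malic enzyme that supplies NADPH, by 0.68 on the log2 scale.

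In fatty acid oxidation 10 of 17 genes tested fell (58.8%, against 10.5% of all genes) and 0 rose, with a median log2 fold change of −0.37. SLC25A20, which carries acylcarnitines into mitochondria, was at 10.3 and 9.85 FPKM in TF1-BA and at 4.87 and 5.27 FPKM in TF1-BAR, and fell by 0.92 on the log2 scale (adjusted p = 0.00565). ETFDH and ECHS1, a flavoprotein dehydrogenase and an enoyl-CoA hydratase, fell by 0.79 and 0.77, and ECHS1 lies on chromosome 10. The 9 members that make or modify fatty acids had a median of 0.36, with 6 rising (66.7%, against 16.3% of all genes) and 0 falling. The 2 lists were compared only by these counts and medians.

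**Figure D4:**
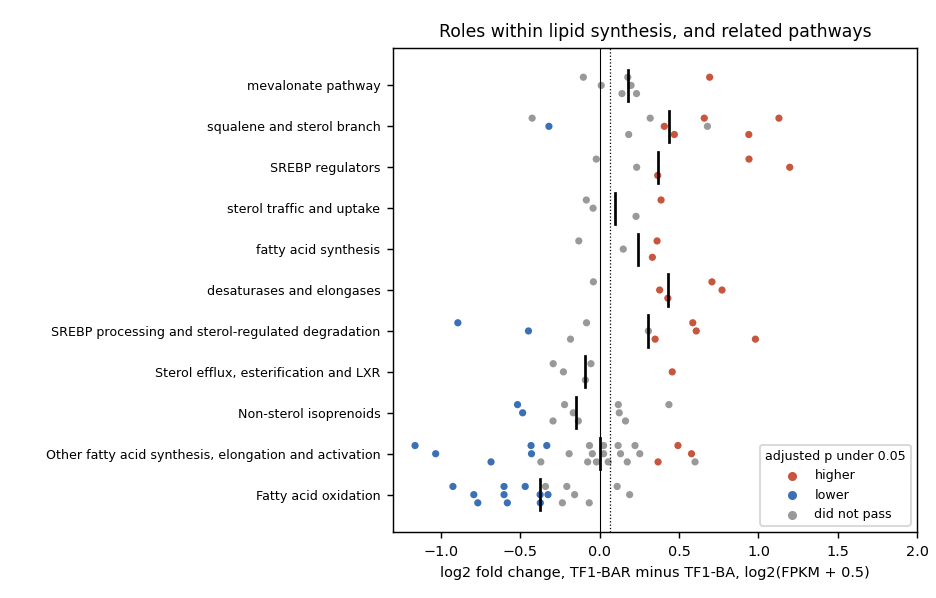
Log2 fold change, TF1-BAR minus TF1-BA on the log2(FPKM + 0.5) scale, of each gene tested (points) in the 6 roles of the members and in 5 lists of related genes (y axis), with the median of each list as a black bar and the median of all genes as a dotted line. The medians run from −0.37 in fatty acid oxidation to 0.44 in the squalene and sterol branch.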

How the data were processed

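The authors sequenced RNA of TF1-BA and TF1-BAR cells with a NEBNext Ultra kit and deposited FPKM for 32673 genes, one column for each of the 4 libraries. By the submitters' processing notes and the study's methods, reads were mapped to GRCh38 with TopHat2 2.0.13 and quantified with Cufflinks and Cuffdiff 2.2.0. The gene annotation is not given in the sources used here. Columns were matched to samples by name, and 26 symbols that had become dates were restored from gene identifiers.

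The 36 members, their roles, the related lists and the tests were chosen with earlier results of these data known. All members are named, and from each related list at most 3 genes in each direction with an adjusted p under 0.05 and the largest log2 fold change. MBTPS1, MBTPS2, ABCA1 and ABCG1 were named in addition, after their values were seen, as were the ratios of members and the gap between replicates.

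Differences in the deposited FPKM were tested by limma 3.58.1 (R 4.3.3), using lmFit and trended eBayes on log2(FPKM + 0.5), for genes with a mean of at least 0.5 FPKM. The study's own count test does not suit FPKM. A fold change on this scale understates the change of low genes. Single ratios were compared by exact permutation (scipy 1.17.1). The scripts were also tested on simulated counts.

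Library sizes and the fragments behind the FPKM were recovered as the whole numbers that give the 4 values of a gene at 1 length. All 30853 genes above 0 were whole within a tolerance of 0.001, 14220 of them at their GENCODE 44 exon length. In a check over a shorter range of lengths, 299 of 300 genes were whole with these library sizes and 0 of the same 300 with wrong ones. For the other genes the fragment number is the smallest possible one or a multiple of it near the annotated length, so it may be wrong by a whole factor. Replicates differed by more than counting noise (chi-square per degree of freedom 4.04 in TF1-BA and 6.47 in TF1-BAR).

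Gene overlaps come from GENCODE 44 and promoter windows from RefSeq (GRCh38.p14), where 33 of 36 members matched. Alternatives were other pseudocounts, filters and scalings, eBayes without the trend or robust, limma voom on recovered fragments, the replicate block, and leaving out each library.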

Additional observations from a re-analysis of the deposited data

How the results depend on the processing

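The count of 16 members that rose was 9 with no filter and 11 to 17 under the other alternatives that kept all 4 libraries, and from 0 to 12 when a library was left out. Over all genes tested 851 of 30853 rose with no filter, 1928 of 15519 without the trend and 3479 with limma voom, against 2537 of 15519 in the reported fit. The 1 member that fell, NSDHL, became 0 with eBayes without the trend, 0 with no filter and 0 with rescaling to TPM, 2 with limma voom on recovered fragments (NSDHL and HSD17B7), and 0 in each fit that left out a library. The 2 members past the 2-fold threshold became 4 with rescaling to TPM, 3 with limma voom or a pseudocount of 0.1 FPKM, and 0 to 2 when a library was left out (without TF1-BAR replicate 1, INSIG1 and SREBF2 in place of INSIG1 and SC5D), while 0 members fell past that threshold under every alternative. FDFT1, SQLE, LSS, SC5D, INSIG1, SREBF2, SCD, FADS2 and ELOVL6 kept their calls under every alternative with all 4 libraries. The cause of these shifts was not tested, except that 30853 genes enter the fit with no filter and 3 libraries the fits that leave one out.

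Signs turned for members near 0, none of which passed, and for ACSS2. MVK was −0.127 with quantile normalization and −0.00771 with upper-quartile scaling, and from −0.0458 to 0.0661 when a library was left out. With rescaling to TPM SREBF1 was 0.0459, NPC1 0.0222 and ELOVL5 0.0286. Leaving out libraries gave −0.0699 to 0.0276 for SREBF1, −0.509 to 0.342 for STARD4, −0.135 to 0.0529 for NPC1 and −0.166 to 0.0875 for ELOVL5. ACSS2 was −0.0579 after subtraction of its chromosome's median.

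With the replicate block 16 members rose and 1 fell, and no member's call changed. The numbers are not known to pair the libraries, since what same-numbered libraries add to or take from the group mean correlated at only 0.0646 over 15519 genes. With 2 libraries a line, differences much under the confidence intervals given are not detectable.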
